A study of Mus musculus with 12 samples.

Results

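The response of wild-type mouse hearts to aortic banding was described from 6 of the 12 arrays of the series, the 3 labelled wild-type banded and the 3 labelled wild-type sham. All 34945 probe sets that the platform annotation assigned to a single gene, standing for 18193 genes, were compared. The series set out to relate the loss of apelin, a peptide hormone of the heart and vessels, to the response to pressure overload, and its other 6 arrays came from apelin-knockout hearts, banded and sham. The wild-type mice were the genotype controls of the series, the banded group had a constricted aorta, and the sham group was its surgical control. RNA was total RNA of whole heart tissue, and the labels call the 3 arrays of a group biological replicates. Strain, age, sex, the site and duration of banding, and whether hearts were pooled are unstated in the sources used here, and the sample of 1 array is called a heart for short.

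A heart that ejects against a narrowed aorta carries a raised wall stress, and its ventricular muscle cells enlarge. In mice this state is known for the return of a fetal gene program, in which natriuretic peptides, skeletal actin and the slow beta-myosin heavy chain are made in the ventricle. Heat-shock proteins and immediate-early transcription factors, which answer mechanical and chemical stress within minutes to hours, and collagen-making fibroblasts also take part in it.

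No probe set passed the test for banding in wild-type hearts, 0 of 34945 at an adjusted p under 0.05 (limma, Benjamini-Hochberg, 0% called), so every difference given here is a measured value that did not pass. The smallest adjusted p was 0.0968, and 0.610 when the 6 wild-type arrays were fitted alone. At an unadjusted p under 0.05 there were 1951 probe sets (5.58%), of which 887 were higher (2.54%) and 1064 lower (3.04%) in banded hearts. In 3484 probe sets (9.97%) the 3 banded arrays lay entirely on one side of the 3 sham arrays, above them in 1439 (4.12%) and below them in 2045 (5.85%). Gene groups were counted with 1 probe set per gene, the one of highest mean. On that basis 5.24% of genes had an unadjusted p under 0.05, 2.18% higher and 3.06% lower, and 9.76% had groups without overlap, 3.70% higher and 6.05% lower. A difference above 0 was found for 43.5% of genes. These shares are the background for the counts of gene groups. The higher side made up 45.5% of the probe sets with an unadjusted p under 0.05, and 55.9% when arrays were scaled to one median, so the balance between higher and lower is not settled.

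The deposited arrays share a mean intensity of 150 once the extreme 2% at each end is left out, and the median of a wild-type array was 42.3 to 50.4, lowest in sham 1 and highest in sham 2. Wild-type arrays of one group correlated at 0.972 to 0.979, and banded with sham arrays at 0.973 to 0.979, so an array resembled the other group as much as its own. Genes of working ventricular muscle were abundant in all 6 arrays, with a list mean of 12.7 to 13.5 on the log2(intensity + 16) scale. Wild-type banded 3 stood apart: Xist, the RNA that silences one X chromosome in female cells, read 1255 there and 53.5 to 80.2 in the other wild-type arrays, and the Y-linked Eif2s3y read 0.468 there and 284 to 395 in the others. The banded group therefore held 1 array with a female pattern and the sham group none. The 3' to 5' ratio of Actb, a measure of RNA integrity, was 0.08, 0.10 and 0.28 log2 in the banded arrays and -0.09, 0.18 and 0.18 in the sham arrays, so the groups overlapped.

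Of the fetal and hypertrophic genes, skeletal actin and Abra differed most clearly, with every banded array above every sham array. Acta1, which encodes skeletal alpha-actin, read 7452, 7932 and 4748 in banded hearts 1 to 3 and 3512, 1974 and 3538 in sham hearts 1 to 3. Every banded heart was above every sham heart, and banded 3 was the lowest of its group. The log2 difference, the mean of log2(intensity + 16) in banded minus that in sham hearts, was 1.17 (95% interval 0.36 to 1.97, limma adjusted p = 0.789). Abra, an actin-binding protein of striated muscle, read 623, 807 and 518 in banded and 289, 242 and 330.5 in sham hearts. It had the smallest p of the 31 measured genes of the list, without overlap between the groups. Its difference was 1.12 (95% interval 0.54 to 1.70, limma adjusted p = 0.622). These arrays measure whole tissue, in which more cells of a type and more RNA per cell cannot be told apart.

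Myh7, the slow beta-myosin heavy chain, read 10045, 6718 and 1918 in banded hearts and 5182, 1110 and 1361 in sham hearts. Sham 1 was several times as high as the other sham hearts and banded 3 was far below the other banded hearts, so the groups overlapped. The difference was 1.34 (95% interval 0.07 to 2.62, limma adjusted p = 0.884), and it lay between 0.85 and 2.04 when single arrays were left out, 2.04 without banded 3 and 2.03 without sham 1. Nppb, which encodes the natriuretic peptide BNP, read 6296, 6654 and 6660.1 in banded and 6874, 2060.2 and 2351 in sham hearts. Banded hearts were close together and well above sham 2 and 3, but sham 1 exceeded all of them. The difference was 1.02 (95% interval 0.02 to 2.02, limma adjusted p = 0.884), and 1.56 without sham 1. Tnfrsf12a, the receptor for the cytokine TWEAK, had the same outlying sham array: 721, 457 and 437 in banded against 577, 154 and 206 in sham hearts, a difference of 0.94 (95% interval -0.07 to 1.94).

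Other classical genes of the list did not separate. Nppa, which encodes the atrial natriuretic peptide ANP, read 10416, 11227 and 6009 in banded and 8426, 2345 and 14051 in sham hearts. Both the lowest and the highest of these values were sham hearts, and the difference of 0.44 (95% interval -0.63 to 1.52) turned to -0.29 without sham 2. Ankrd1, a stretch-responsive nuclear and sarcomeric ankyrin-repeat protein, was at 0.17 (95% interval -0.24 to 0.59). The adult myosin heavy chain Myh6 and the calcium pump Atp2a2, which are known to be lowered in failing hearts, were both at -0.13 (95% intervals -0.60 to 0.35 and -0.59 to 0.34). Over the whole list of 31 genes, 22 were above 0, the median was 0.17 against -0.03 over all genes, and 0 passed. A higher level at an unadjusted p under 0.05 was found for 4 of them (Abra, Acta1, Myh7 and Nppb), a count of 2 to 6 without single arrays: 6 without sham 1, and 2 without banded 1 or sham 2. Groups without overlap on the higher side were found for 3 (Abra, Acta1 and Fhl1). Over all genes these shares were 2.18% higher at an unadjusted p under 0.05 and 3.70% higher without overlap.

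**Figure D1:**
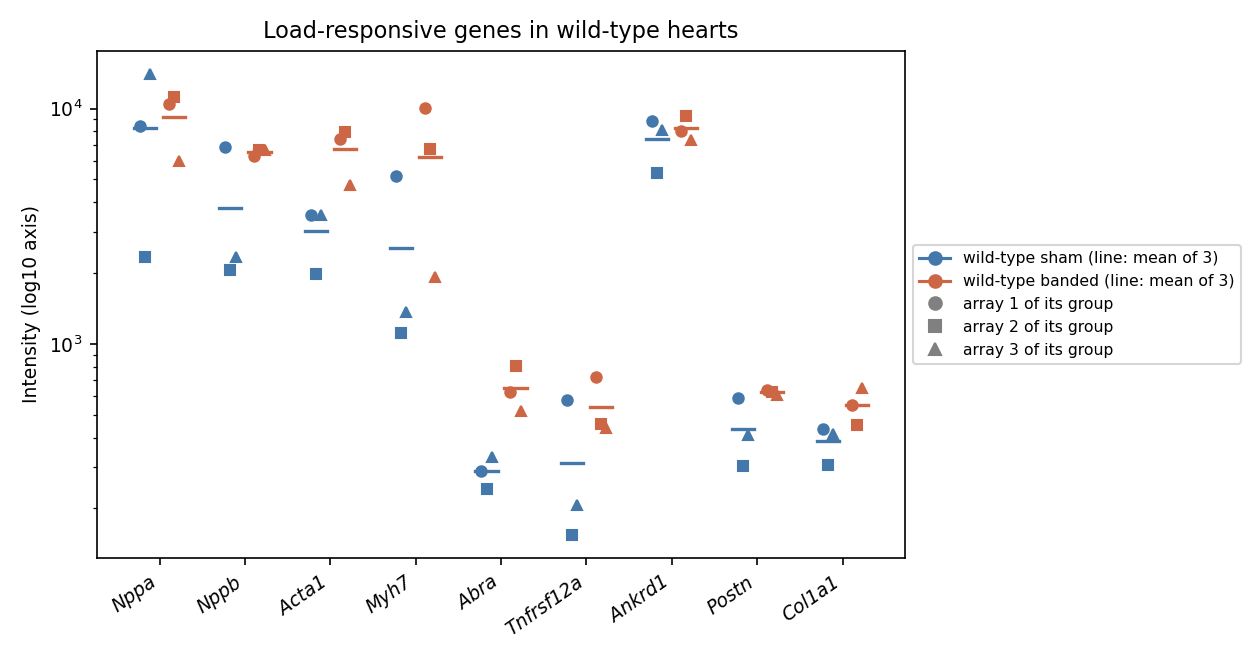
Intensity (log10 axis) of 9 load-responsive genes in the 6 wild-type hearts, sham in blue and banded in red, with the symbol giving the array number and a line at the mean of 3. Acta1, Abra, Postn and Col1a1 show no overlap, while sham 1 (circle) lies with or above banded hearts for Nppb, Myh7 and Tnfrsf12a.

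Genes of the sarcomere and of calcium handling were centred near 0, with a median of 0.02 over 26 genes and -0.01 over 22. The sarcomere list contained 3 genes whose banded arrays were all above the sham arrays (3.70% of all genes). Neb, which encodes the thin-filament ruler nebulin of skeletal muscle, read 58.3, 63.6 and 65.6 in banded and 26.5, 24.7 and 11.2 in sham hearts, a difference of 1.12 (95% interval 0.56 to 1.68, limma adjusted p = 0.593). Its levels were low, so part of the difference depends on the value of 16 added before the logarithm. Tpm2, beta-tropomyosin, was at 0.55, with all 4 of its probe sets between 0.55 and 1.09. Flnc, the muscle filamin of the Z-disc, was at 0.35 (95% interval -0.02 to 0.73) and 0.17 without sham 2. In the calcium list, Slc8a1, the sodium-calcium exchanger of the cell membrane, read 328, 364 and 437 in banded and 129.8, 229 and 275 in sham hearts. The groups did not overlap, and the difference was 0.84 (95% interval 0.32 to 1.36, limma adjusted p = 0.759). Slc8a1 was chosen after its values were seen.

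Ion channel genes had a median of -0.06 over 23 genes, with 1 below 0 at an unadjusted p under 0.05 and 0 above (3.06% and 2.18% of all genes). Kcnj8, a pore subunit of the ATP-sensitive potassium channel, read 349.9, 299 and 313 in banded and 504, 373 and 372 in sham hearts. All banded hearts were below all sham hearts, by -0.35 (95% interval -0.69 to -0.01, limma adjusted p = 0.884), or -0.21 without sham 1. Kcnj8 is also a marker of smooth muscle and pericytes. That list had 11 of 15 genes below 0, a median of -0.11, and means of 8.54 to 8.78 in banded and 8.70 to 8.87 in sham hearts, and its part in the Kcnj8 value was not tested. Kcnh2, the channel of the rapid delayed rectifier current, also lay below without overlap, at -0.30 (95% interval -0.68 to 0.07) and -0.17 without sham 3, although banded 1 at 504 was close to sham 1 at 507.

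Heat-shock and chaperone genes, which keep proteins folded under stress, had the largest share of higher members at an unadjusted p under 0.05 among the 18 pathway lists. All 18 lists were chosen with earlier results of these data known, so their counts and rankings are descriptions and not tests. Of 26 measured genes, 0 passed, 10 had an unadjusted p under 0.05 and were higher in banded hearts (2.18% of all genes were), and 8 had all banded above all sham arrays (3.70% of all genes had). The median was 0.25, 19 of the 26 were above 0, and none was lower at an unadjusted p under 0.05. The count of 10 was 5 without banded 3, 5 without sham 2, and 7 to 11 without each of the other wild-type arrays. The list mean on the log2(intensity + 16) scale was 9.85, 9.94 and 10.1 in banded hearts and 9.71, 9.65 and 9.71 in sham hearts. Banded 3, the array with the female pattern, was the highest, and its part in this result was not tested.

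Hspa1a, an inducible HSP70 chaperone that refolds damaged proteins, read 93.1, 113 and 219.9 in banded and 28.6, 32.9 and 45.2 in sham hearts. The lowest banded heart was well above the highest sham heart, and banded 3 was the highest. The difference was 1.55 (95% interval 0.88 to 2.21, limma adjusted p = 0.499), and 1.21 to 1.77 without single arrays. Hspa1b, its near-identical neighbour, read 167, 193 and 403 in banded and 84.3, 99.9 and 88.5 in sham hearts, a difference of 1.24, and its 3 probe sets lay between 1.24 and 1.59. Probe sets of Hspa1a and Hspa1b may each bind both transcripts, so the assignment to one of them is uncertain. Dnaja1, a co-chaperone that delivers clients to HSP70, read 759, 626 and 981 in banded and 530.0, 526 and 439.5 in sham hearts. None of these values overlapped, the difference was 0.63 (95% interval 0.29 to 0.97, limma adjusted p = 0.717), and all 3 Dnaja1 probe sets lay between 0.53 and 0.63 without overlap.

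The remaining 7 of the 10 were named after their values were seen. Hsp90aa1, the stress-inducible HSP90, was at 0.62, with 2201, 2713 and 2916 in banded and 1834, 1928 and 1355 in sham hearts. Hspb1, the small heat-shock protein HSP27, was at 0.37, with 5039.5, 5923 and 5793 in banded and 4237, 3997 and 4718 in sham hearts. Bag3, an HSP70 partner that maintains the Z-disc, was at 0.36 and Dnajb4 at 0.37, both without overlap between groups. Dnajb1 (0.44), Hsph1 (0.54) and Chordc1 (0.35) overlapped, with banded 3 the highest array for each. The mitochondrial chaperones Hspd1 and Hspa9 were at -0.07 and -0.01.

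**Figure D2:**
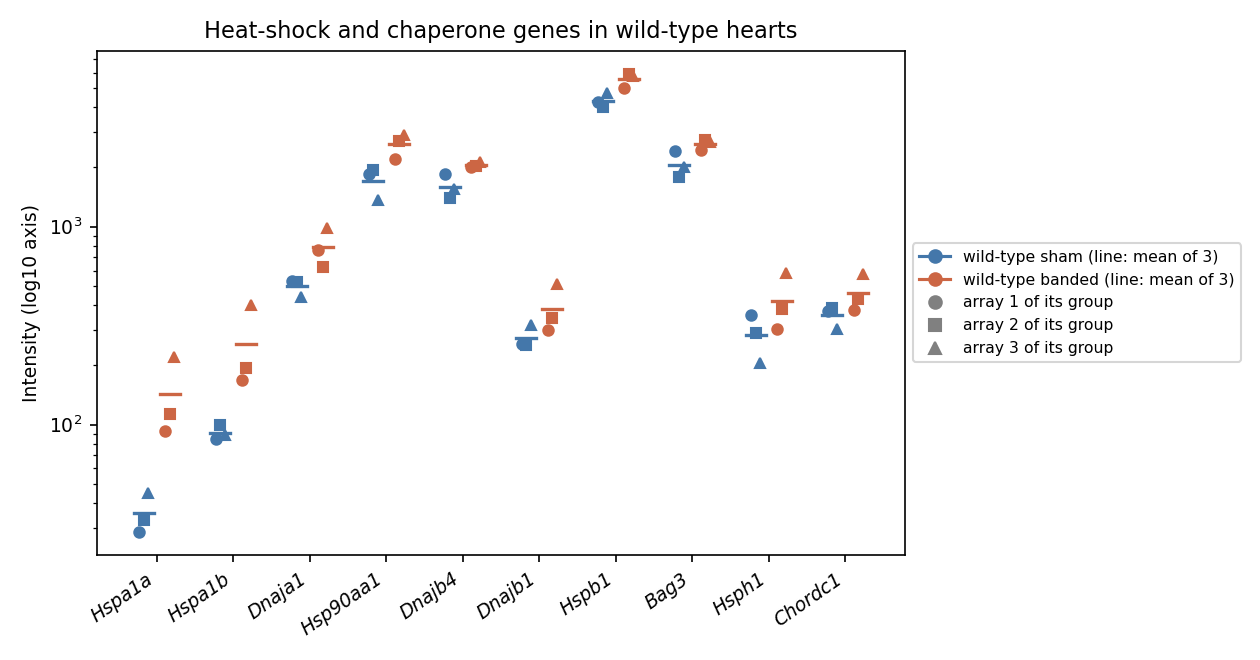
Intensity (log10 axis) of the 10 heat-shock and chaperone genes with an unadjusted p under 0.05, in the 6 wild-type hearts, with symbols for the array number and a line at the mean of 3. Hspa1a and Hspa1b show the widest gaps, and banded 3 (red triangle) is the top banded value for Hspa1a at 219.9 and Hspa1b at 403.

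The promoters of these genes are shown because heat-shock genes are known to share a binding element of the factor HSF1, built from inverted repeats of the bases GAA. The 250 bases before the transcription start were taken from RefSeq on the mouse build GRCm38.p6, and the motif GAANNTTC, which reads the same on both strands, is in capitals. Hspa1a lies on the minus strand (chr17:34972157-34972406), Hspb1 on the plus strand (chr5:135887669-135887918) and Dnaja1 on the plus strand (chr4:40722218-40722467).
Hspa1a: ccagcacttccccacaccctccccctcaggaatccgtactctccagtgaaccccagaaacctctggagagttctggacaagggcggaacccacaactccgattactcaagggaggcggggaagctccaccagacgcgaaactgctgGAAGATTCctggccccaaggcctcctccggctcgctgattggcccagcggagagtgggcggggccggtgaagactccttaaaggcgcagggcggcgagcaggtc
Hspb1: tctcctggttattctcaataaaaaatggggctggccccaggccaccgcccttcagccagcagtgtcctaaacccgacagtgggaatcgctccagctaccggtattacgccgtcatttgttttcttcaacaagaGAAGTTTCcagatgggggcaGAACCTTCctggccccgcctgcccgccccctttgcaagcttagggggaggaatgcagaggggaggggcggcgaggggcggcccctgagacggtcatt
Dnaja1: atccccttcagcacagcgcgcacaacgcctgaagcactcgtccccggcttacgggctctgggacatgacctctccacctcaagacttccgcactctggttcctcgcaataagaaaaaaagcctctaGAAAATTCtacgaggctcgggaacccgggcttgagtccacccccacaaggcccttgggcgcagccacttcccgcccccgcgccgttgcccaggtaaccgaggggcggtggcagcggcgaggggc
The match began 104 bases before the start of Hspa1a and 124 before that of Dnaja1, and the 2 matches of Hspb1 began 117 and 97 before its start. In windows of 300 bases, of which 250 lie before the start, GAANNTTC was present in 7.86% of 32851 mouse promoters and at 9.04% of 27025 genes. Of the 26 measured heat-shock genes, 22 had a promoter in the table and 13 of these held the motif. Among the 9 with a promoter that were higher at an unadjusted p under 0.05, 7 held it. The reversed arrangement TTCNNGAA is also the same on both strands and able to share bases with GAANNTTC. It was present in 8.52% of promoters, at 9.60% of genes and at 5 of the 22 heat-shock genes. A match is a description of the letters in the window and not of binding.

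Skeletal actin is shown for a like reason, since muscle genes driven by serum response factor carry a CArG box. This motif, written in capitals and searched on both strands, was present in 1.63% of the promoters and at 1.81% of genes. It was present at 5 of 23 genes of the hypertrophic and fetal list with a promoter in the table, Acta1 among them, and at 3 of 31 immediate-early genes. Of those higher at an unadjusted p under 0.05, 1 of 3 and 0 of 7 held it. Acta1 lies on the minus strand of GRCm38.p6 (chr8:123894776-123895025), and its match began 73 bases before the start.
Acta1: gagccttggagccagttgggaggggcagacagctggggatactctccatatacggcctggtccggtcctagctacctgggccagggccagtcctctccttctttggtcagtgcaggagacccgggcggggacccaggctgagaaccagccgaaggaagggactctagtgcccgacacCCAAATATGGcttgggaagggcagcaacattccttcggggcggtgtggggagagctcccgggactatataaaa

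Immediate-early genes had the highest median of the 18 pathway lists, 0.65 over 38 genes, with 34 above 0, but the arrays of each group were far apart. The list mean on the log2(intensity + 16) scale was 8.21, 9.16 and 8.49 in banded hearts and 7.29, 7.87 and 8.87 in sham hearts. Sham 3 was above banded 1 and 3, and sham 1 was the lowest of all. Fos, a subunit of the AP-1 transcription factor, read 697, 2744 and 894 in banded and 40.6, 631 and 1644 in sham hearts. Egr1, a zinc-finger factor induced by growth signals, read 1878, 5976 and 2441 in banded and 219.9, 1690 and 4037 in sham hearts. Both overlapped across groups, and their differences of 1.63 and 1.37 had 95% intervals of -0.91 to 4.16 and -0.69 to 3.42. Without sham 1 they were 0.23 and 0.21.

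Fewer members separated the groups. Klf2, a flow-sensitive factor of endothelial cells, read 1362, 1416 and 1649 in banded and 535, 876 and 922 in sham hearts, a difference of 0.94 (95% interval 0.41 to 1.48, limma adjusted p = 0.721). Its relative Klf4 was at 0.60, and at 0.83 in a second probe set, neither with overlap. Maff, a small partner of AP-1-like factors, read 68.3, 81.8 and 87.1 in banded and 22.5, 10.4 and 58.0 in sham hearts, a difference of 1.17. At an unadjusted p under 0.05, 7 of 38 were higher and 0 lower (2.18% and 3.06% of all genes), and 4 had banded arrays above all sham arrays (3.70%). That count of 7 turned on single arrays: it was 24 without sham 3, 10 without banded 1, 4 without sham 2, and 3 without sham 1, banded 2 or banded 3. The median was 1.02 without sham 3 and 0.22 without sham 1.

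**Figure D3:**
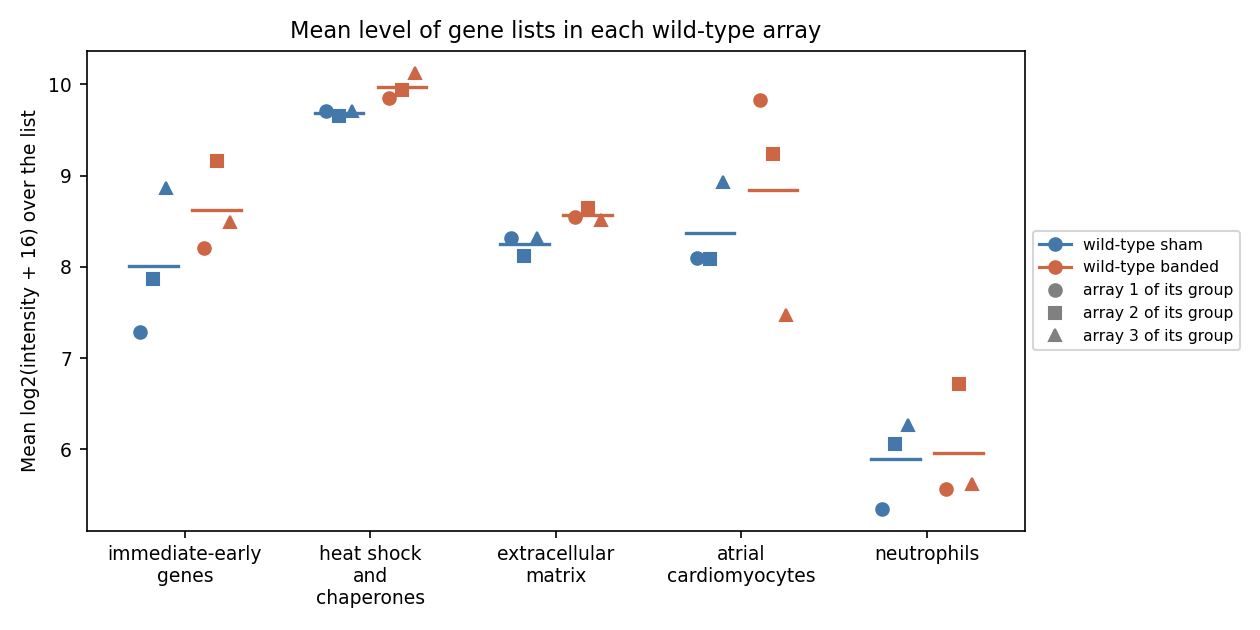
Mean log2(intensity + 16) over the genes of 5 lists in each of the 6 wild-type hearts, sham in blue and banded in red, with a line at the mean of 3. The heat-shock and matrix lists do not overlap between groups, whereas immediate-early, atrial and neutrophil lists vary more among hearts of one group than between groups.

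Matrix genes lay above 0 almost throughout. Of 53 measured genes, 46 were above 0, the median was 0.26, 0 passed, and 4 were higher at an unadjusted p under 0.05 (2.18% of all genes). All banded arrays were above all sham arrays for 14 (3.70% of all genes), with 1 the other way (6.05%). Adamtsl2, a secreted protein of microfibrils, read 193, 180.3 and 251 in banded and 114, 92.1 and 127 in sham hearts, a difference of 0.81 (95% interval 0.29 to 1.34, limma adjusted p = 0.789). Col14a1, a collagen of fibril surfaces, was at 0.69 and Timp2, a metalloproteinase inhibitor, at 0.42, both without overlap. The lowest of 3 Col14a1 probe sets was at -0.03. Col1a1, a chain of the main fibrillar collagen, read 548, 453 and 648 in banded and 433, 307 and 415 in sham hearts. Col1a1 was at 0.50 (95% interval -0.05 to 1.05), and at 0.02 in a second probe set. Its partner chain Col1a2, named after its values were seen, read 1108, 1106 and 1333 against 768, 697 and 769.5, a difference of 0.65. Postn, the periostin made by activated fibroblasts, read 634, 627 and 609 in banded and 590.4, 303 and 411 in sham hearts. The banded hearts were nearly equal and only just above sham 1, and the difference was 0.55 (95% interval -0.64 to 1.75), or 0.33 without sham 2. That interval takes in the spread of knockout banded arrays 1 to 3, at 639, 4719 and 3978. Ccn2, the connective tissue growth factor, overlapped at 0.73 (95% interval -0.36 to 1.81), with sham 3 at 2521 among the highest, and was at 0.43 without sham 2 and 1.26 without sham 3.

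The count of 4 matrix genes at an unadjusted p under 0.05 depended on which arrays shared the variance estimate. It was 14 when the 6 wild-type arrays were fitted alone and 13 without the array labelled knockout banded 1, for the same differences. It was 2 without sham 2 and 7 without sham 3. Of 15 fibroblast markers 12 were above 0, with a median of 0.25 and 0 at an unadjusted p under 0.05. That 0 also turned on the arrays fitted. It was 5 higher with the 6 wild-type arrays alone and 6 without the array labelled knockout banded 1. The groups did not overlap for 5 on the higher side and 1 on the lower (3.70% and 6.05% of all genes). Their list mean was 9.42 to 9.54 in banded and 9.05 to 9.32 in sham hearts, and 6 of these genes are also in the matrix list. The part of fibroblast number in the matrix values was not tested.

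**Figure D4:**
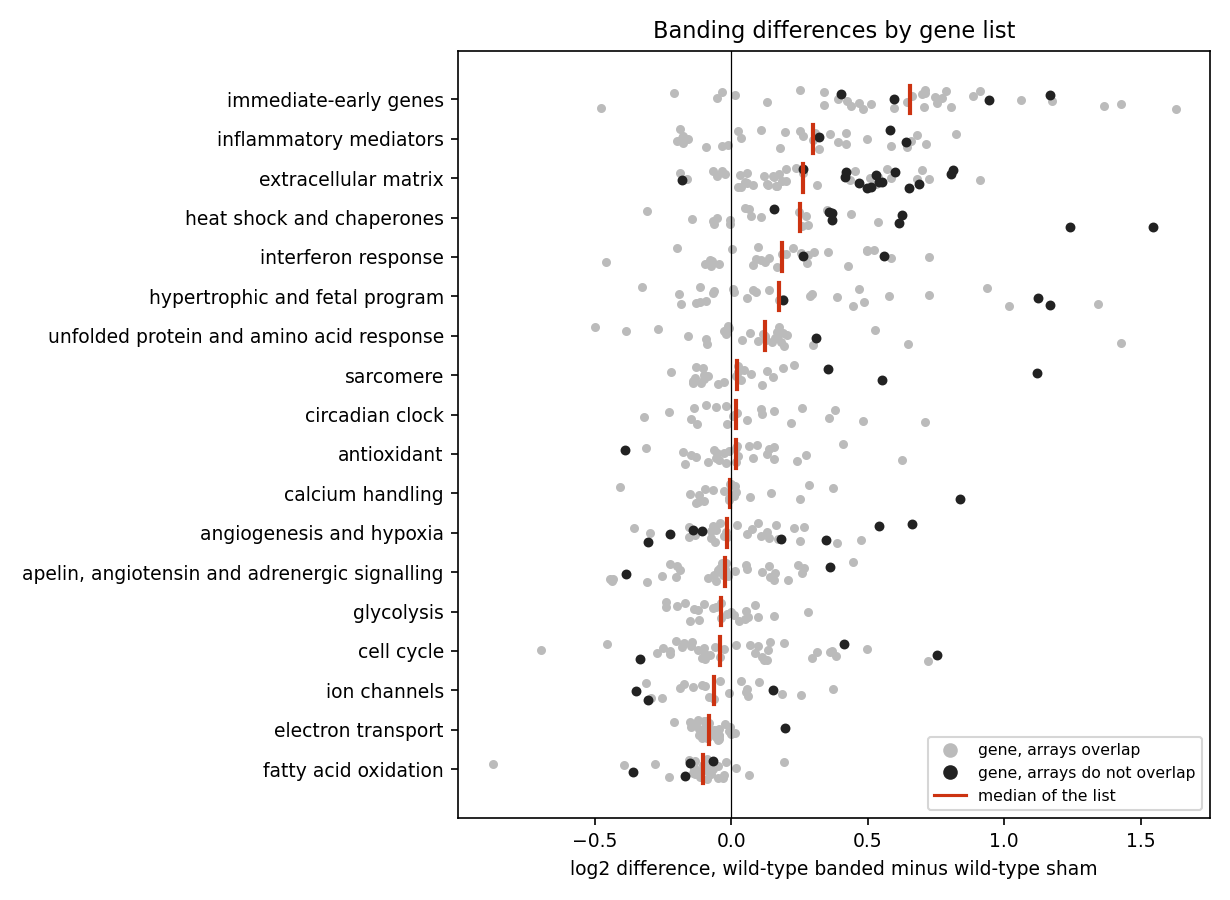
Log2 difference, wild-type banded minus sham, of each measured gene in 18 lists, ordered by the list median (red line), with genes in black where the 3 banded and 3 sham arrays did not overlap. Immediate-early genes have the widest spread with a median of 0.65, and the 2 lists of mitochondrial energy metabolism lie narrowly below 0.

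Inflammatory mediators had a median of 0.30 over 33 genes, with 24 above 0. At an unadjusted p under 0.05, 6 were higher and 0 lower (2.18% and 3.06% of all genes). Cxcl1, a neutrophil-attracting chemokine, read 362, 467 and 478 in banded and 233, 377 and 218 in sham hearts, a difference of 0.66 (95% interval 0.20 to 1.12, limma adjusted p = 0.789) with overlap at sham 2. Ccl5 was at 0.71, and at 0.45 without sham 3. Ccl9 was at 0.64 without overlap, at 0.41 without banded 2, and at 0.05 in a second probe set. The median was 0.03 without banded 2, and the count of 6 was then 3; it was 4 without sham 1 and 3 without sham 2. Banded 2 was also high for the neutrophil proteins S100a8 and S100a9, at 877 and 1041, against 17.5 to 391 and 23.8 to 408 in the other wild-type arrays. The neutrophil list of 12 measured genes had a mean of 5.56 to 6.72 in banded and 5.35 to 6.26 in sham hearts, and its part in the chemokine values was not tested.

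Interferon-response genes had a median of 0.18 over 31 genes, with 4 higher and 1 lower at an unadjusted p under 0.05 (2.18% and 3.06% of all genes). Igtp, an interferon-inducible GTPase, read 423, 535 and 697 in banded and 459, 312 and 230.4 in sham hearts. Sham 1 lay within the banded range, and the difference was 0.72 (95% interval 0.25 to 1.20, limma adjusted p = 0.789). Irgm1, of the same family, was at 0.26 without overlap and the antiviral Rsad2 at 0.58 with overlap, or 0.34 without banded 2. Sham 1 had the highest list mean of all wild-type arrays, 7.91 against 7.28 to 7.75, and without it 14 of the 31 were higher at an unadjusted p under 0.05. That number was 1 without banded 2, sham 2 or sham 3, and 2 without banded 3.

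Genes of mitochondrial energy metabolism had medians close to 0, and no member had an unadjusted p under 0.05 (5.24% of all genes had). Of 34 fatty acid oxidation genes, 31 were below 0 and the median was -0.10. The groups did not overlap for 4, all lower in banded hearts (6.05% of all genes). Ech1, an isomerase of unsaturated fatty acid oxidation, read 5728, 6951 and 6838 in banded and 7022, 7800.4 and 10494 in sham hearts, at -0.36 (95% interval -0.83 to 0.12) and -0.19 without sham 3. Acot1, an acyl-CoA thioesterase controlled by PPAR-alpha, was at -0.87 with overlap (95% interval -2.09 to 0.35) and -0.50 without sham 2. Of 33 electron transport genes, 30 were below 0 with a median of -0.08, and the exception without overlap was Uqcrc2, a core subunit of complex III, at 0.20. The median of electron transport was -0.24 without sham 2 and 0.08 without sham 3, and working ventricular muscle markers, with 11 of 12 below 0, had a median of -0.35 without sham 2 and 0.11 without sham 3. Whether these values belong to the pathway or to the share of muscle RNA in an array was not tested.

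Apelin itself was not separated by banding. Apln read 205, 223 and 255 in banded and 333, 323 and 212 in sham hearts. Sham 3 lay within the banded range, and the difference was -0.31 (exact permutation p = 0.30, two-sided, with 0.10 the smallest that 3 against 3 arrays can give). The apelin receptor Aplnr was at -0.44 (95% interval -1.49 to 0.62), with sham 1 at 2031 and the other wild-type arrays at 393 to 854. Among 35 genes of apelin, angiotensin and adrenergic signalling, the median was -0.02. At an unadjusted p under 0.05, 1 was higher and 2 lower (2.18% and 3.06% of all genes). Grk3, a kinase that desensitises G-protein-coupled receptors, read 288, 243 and 198 in banded and 324, 333 and 301 in sham hearts. All banded hearts were below, by -0.39 (95% interval -0.70 to -0.07, limma adjusted p = 0.835), or -0.26 without banded 3. Agtr1a, the type 1 angiotensin receptor, was at -0.45, with overlap between banded 3 and sham 1.

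The remaining lists were centred near 0: unfolded protein response (median 0.12 over 31 genes), antioxidant (0.02 over 29), circadian clock (0.02 over 22), angiogenesis and hypoxia (-0.02 over 37), glycolysis (-0.04 over 25) and cell cycle (-0.04 over 41). None held more than 2 genes at an unadjusted p under 0.05 (5.24% of all genes). In the angiogenesis list Flt1, the VEGF receptor 1, separated cleanly at 706, 679 and 662 in banded and 516, 544 and 538 in sham hearts. Its difference was 0.35 (95% interval 0.18 to 0.51, limma adjusted p = 0.583), and it was named after its values were seen.

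Outside the lists, 5 probe sets had an adjusted p under 0.10, and 2 of them were at ordinary intensities. Rbm25, an RNA-binding regulator of splicing, read 411, 428 and 393 in banded and 235, 257 and 266 in sham hearts. The groups were far apart, and the difference was 0.67 (95% interval 0.46 to 0.87, limma adjusted p = 0.0979). The gene's other 5 probe sets lay lower, down to 0.08. Crim1, a membrane protein that binds bone morphogenetic proteins, read 426, 291 and 339 in banded and 134, 174 and 182 in sham hearts, a difference of 1.03 (95% interval 0.71 to 1.35, limma adjusted p = 0.0979). Its second probe set was at 0.19. Resf1, a factor in the silencing of retroelements, read 455, 451 and 535 in banded and 238, 110.1 and 205 in sham hearts, at 1.37 (limma adjusted p = 0.152), and its 4 probe sets lay between 0.48 and 1.37.

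The other 3 probe sets under 0.10 were dim in at least one group. Fgf6, a fibroblast growth factor of skeletal muscle, read 61.2, 62.6 and 33.9 in banded and 4.16, 7.03 and 3.40 in sham hearts, at 1.69 (limma adjusted p = 0.0968). Tert, the catalytic subunit of telomerase, read 18.3, 19.3 and 13.9 against 1.83, 1.76 and 2.12, at 0.89, and its second probe set was at -0.15. Stum read 5.95, 6.69 and 8.29 against 38.5, 31.3 and 48.3, at -1.26 (limma adjusted p = 0.0968). Between 25.8 and 29.7% of probe sets read under 16 in a wild-type array. The lower group of each of these 3 genes lay in that range, while Fgf6 in banded and Stum in sham hearts lay above it. Adamtsl1 (1.21), Tmem167 (1.06), Pogz (1.12), Zbtb49 (0.79) and Fjx1 (1.03) completed the 10 higher genes of smallest p, all at 51.3 or less in every wild-type array. The lowest probe sets of these genes, in the same order, were at 0.02, -0.12, -0.05, -0.22 and -0.22.

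Lower genes of smallest p at ordinary intensities differed by moderate amounts. Mcrs1, a nuclear microspherule protein, read 293, 278 and 299 in banded and 386, 385 and 391 in sham hearts, at -0.40 (95% interval -0.58 to -0.22, limma adjusted p = 0.499). Gtf2b, the general transcription factor TFIIB, was at -0.51, Sephs2, an enzyme of selenocysteine synthesis, at -0.53, Atpaf1, an assembly factor of the ATP synthase, at -0.52, and Snrpd3, a core spliceosomal protein, at -0.56. Each of these had all banded hearts below all sham hearts, which the choice of genes required. The highest probe set was at 0.03 for Sephs2, -0.11 for Atpaf1 and -0.23 for Snrpd3. Ppp1r2-ps9 (-1.89), Fibp (-1.73), Gm19461 (-1.06) and Bdkrb2 (-0.59) were the dimmer ones, and the other Fibp probe sets ranged from -0.96 to 0.07. The second probe set of Bdkrb2 was at -0.02.

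**Figure D5:**
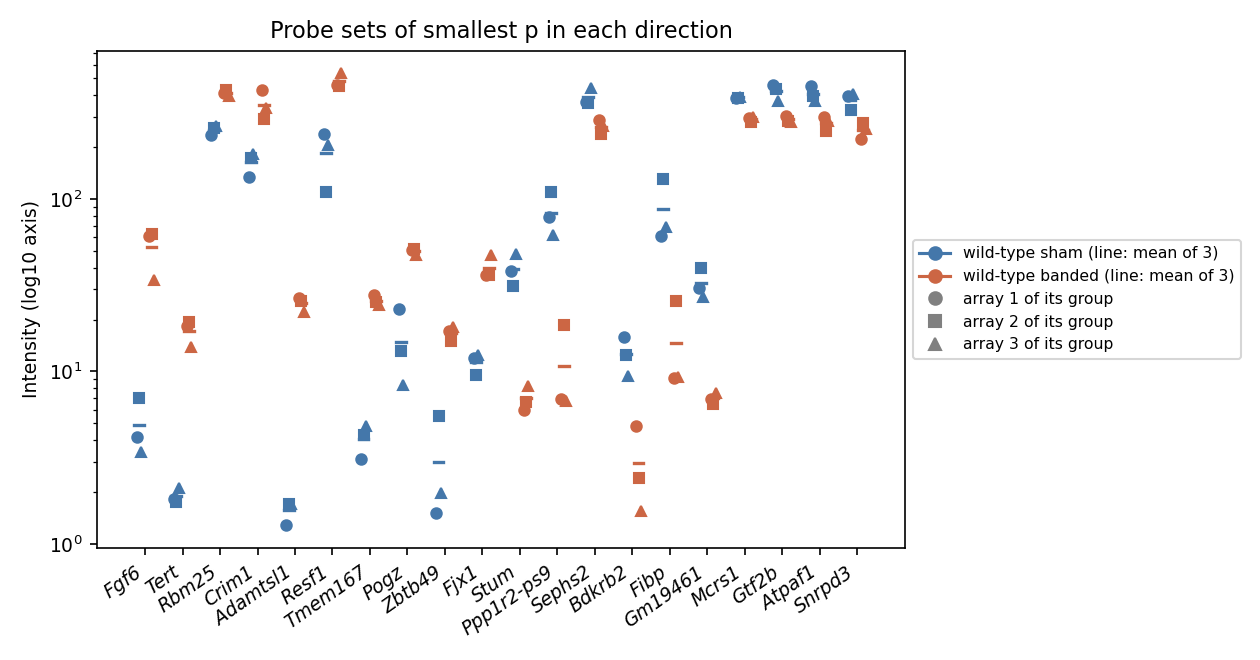
Intensity (log10 axis) of the 10 genes of smallest p on each side, in the 6 wild-type hearts, sham in blue and banded in red, with a line at the mean of 3. The genes were chosen for groups that do not overlap, and several, such as Tert, Stum and Bdkrb2, lie in the dim range where the 16 added before the logarithm weighs most.

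Differences within a group were larger than those between groups for several atrial genes. Sln, which encodes sarcolipin, an atrial inhibitor of the calcium pump, read 7649, 5816 and 1.42 in banded and 343, 334 and 4561 in sham hearts. The atrial myosin light chain Myl7 read 7621, 5699 and 19.6 in banded and 443, 689 and 5785 in sham hearts, and Myl4 was high in the same 3 arrays, banded 1, banded 2 and sham 3. The mean of the 16 atrial genes was 9.83, 9.23 and 7.47 in banded and 8.10, 8.09 and 8.93 in sham hearts. Of the 16, 14 were above 0, with a median of 0.26. A higher level at an unadjusted p under 0.05 was found for 1 (2.18% of all genes). Nppa is an atrial gene as well as a load-responsive one, and its 3 highest arrays were also banded 1, banded 2 and sham 3. The part of atrial tissue in its values was not tested. Pam, an enzyme that amidates peptide hormones and is abundant in atrial granules, read 5281, 3143 and 2024 in banded and 2196, 1591 and 302 in sham hearts. Unlike Sln, Myl7 and Myl4, it was lowest in sham 3. Adipocyte markers were high in banded 1 alone, with a list mean of 7.83 against 6.74 to 7.12 in the other wild-type arrays.

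The wild-type response was set against that of knockout hearts by the interaction, the knockout difference minus the wild-type difference. It passed for 0 of 34945 probe sets (limma, 0% called), with 2582 (7.39%) at an unadjusted p under 0.05, while banding in knockout hearts alone passed for 233 probe sets (0.667%). More passing in one genotype than in the other is no test of a difference. Without the array labelled knockout banded 1, whose Apln level of 271 lies among the wild-type values and goes against its label, the interaction passed for 169 probe sets of 143 genes, 104 with the higher difference in knockouts. Those 169 are 0.484% of all probe sets. With that array left out and 1 probe set per gene, 15 of 53 matrix genes and 3 of 31 hypertrophic genes passed. These had the higher difference in knockouts, as did 0.335% of all genes. With all arrays kept, 0 of either list passed. The matrix list mean was 8.34 in the array left out and 9.71 and 9.40 in the other knockout banded arrays. The matrix count therefore depended on leaving out the knockout banded array of lowest matrix level. Without that array Postn was at 3.54 in knockout and 0.55 in wild-type hearts (limma interaction adjusted p = 0.00163). With all arrays kept, the Postn interaction was 2.07 and did not pass (limma adjusted p = 0.608). The array left out read 639 for Postn, and the other knockout banded arrays read 4719 and 3978. The small p for Postn therefore depended on leaving out the knockout banded array of lowest Postn. Lox, which cross-links collagen, was at 2.62 and -0.02 without that array (interaction adjusted p = 0.0012). Hspa1a, likewise without that array, was at 1.68 and 1.55 (interaction 0.14, adjusted p = 0.948).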

How the data were processed

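Total RNA of 12 mouse heart samples was isolated with Trizol and biotin-labelled, per the labels' protocols, and was read on Affymetrix mouse expression arrays. The authors deposited a linear intensity for each of 45101 probe sets per array. Which software made and scaled them is not stated in the sources used here. Every array had the same trimmed mean, so no further scaling was applied. After 64 controls were left out, 34945 probe sets had 1 gene in the platform annotation (932 had several and 9160 none listed). Of the 34945, 34741 matched RefSeq by Entrez number, and 0 symbols changed. The 3 arrays of a group limit the precision, since arrays carry no depth.

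Intensities were taken as log2(value + 16). The 12 arrays entered a single fit of 4 group means in limma 3.58.1 in R 4.3.3 (lmFit, eBayes with a trend, 8 residual degrees of freedom), with two-sided tests, Benjamini-Hochberg adjustment over all 34945 probe sets and a threshold of 0.05. The contrasts were banding in wild type, banding in knockout, and the interaction. P-values measure the spread between arrays. The members and gene lists were chosen with earlier results of these data known, and 719 of the 784 listed genes were measured. Lists were described by counts and medians, with 1 probe set per gene, and were not tested.

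Named genes were, on each side, the 10 genes of smallest p whose wild-type arrays do not overlap, the 3 members of smallest p on the side of each pathway list's median, a fixed set (Nppa, Nppb, Acta1, Myh7, Myh6, Atp2a2, Ankrd1, Postn, Ccn2, Col1a1, Fos, Egr1, Hspa1a, Apln and Aplnr), the 8 genes of widest range within each group, and the 5 of smallest interaction p. Genes outside this rule were chosen after their values were seen: Tnfrsf12a, Fhl1, Slc8a1, Col1a2, Flt1, Pam, Uqcrc2, Lox, S100a9, Hspd1, Hspa9 and the last 7 heat-shock genes. Actb and Xist were read as array checks. Gene lists of other cell types (16) were read the same way. Promoters came from RefSeq on GRCm38.p6. The script was tested on simulated data. The alternatives were the samples fitted, eBayes settings, array weights, pseudocounts, scaling, filters, the choice of probe set, the replicate block, an atrial covariate and leaving out each wild-type array.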

Additional observations from a re-analysis of the deposited data

Results flagged for a closer look

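For 6 named genes the banded arrays lay entirely on one side of the sham arrays in wild-type hearts and entirely on the other side in knockout hearts. None of these interactions, the knockout difference minus the wild-type difference on the log2 scale, passed an adjusted p under 0.05 in limma, so a difference between genotypes is not shown. Bdkrb2 and Gtf2b had been named for wild-type groups without overlap, and Lrtm1 and Clk2 for a small interaction p. Vegfc and Ccnb2 had been named as members of smallest p in their lists. The share of all probe sets with such opposite groups was not counted, so the count of 6 has no background and is a description only. In wild-type hearts alone, 9.97% of all probe sets had groups without overlap. Bdkrb2, the bradykinin B2 receptor, had an interaction of 0.81, at dim levels of 1.56 to 15.8 in wild-type arrays. Gtf2b had one of 0.77, Vegfc, a growth factor of lymphatic vessels, one of 0.93, and Ccnb2, a mitotic cyclin, one of 0.78. Opposite in sign were Lrtm1 at -0.92 and the splicing kinase Clk2 at -0.68. Clk2 read 289, 293 and 289.5 in wild-type banded and 239, 213 and 213 in wild-type sham hearts. Second probe sets of Bdkrb2 and Lrtm1 were both at -0.02 for banding in wild-type hearts.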

How the results depend on the processing

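Over the 21 alternatives the smallest adjusted p for banding in wild type was 0.0308 to 0.610. A probe set passed only at a pseudocount of 1, where 2 did: Fgf6 at 3.19 (limma adjusted p = 0.037) and Adamtsl1 at 3.33 (limma adjusted p = 0.0308), both dim in sham hearts. With the replicate number as a block (replicate block), 0 passed for banding and 0 for the interaction, and the smallest adjusted p was 0.307. Same-numbered arrays did not deviate together (r = 0.083, -0.081 and -0.067), so the numbers were not taken to pair hearts. The interaction passed for 169 without the array labelled knockout banded 1, and for 1 with eBayes robust, array weights, a pseudocount of 64 or the upper 60% by mean. Without single wild-type arrays, passing numbers were 0 to 0 for banding and 0 to 1 for the interaction. At an unadjusted p under 0.05, higher and lower probe sets then ranged from 800 to 1148 and from 930 to 1491, and those without overlap, which fewer arrays make likelier, from 2578 to 3455 and from 3722 to 4839. Fewer features gave fewer of each. Higher and lower numbers at an unadjusted p under 0.05 were 583 and 562 for the upper 60%, 401 and 549 for 1 probe set per gene, 247 and 290 for both, and 407 and 569 for the average over probe sets of a gene. Without overlap they were 899 and 1246, 674 and 1101, 413 and 671, and 703 and 1136.

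Of the named genes' alternative values, 2063 kept their sign and side of the threshold and 36 turned sign. Turned values were Myl7 at 0.14 with array weights and 0.24 at a pseudocount of 64, Sln at -0.76 at a pseudocount of 1, Ccdc141 at 0.021 with median scaling, and Camk2d at 0.13 and Prdx2 at -0.12 as the mean of probe sets. With the atrial covariate Sln was at -1.69, Myl4 at -0.84, Mybphl at -0.35 and Car3 at -0.048. The causes were not tested. Without single arrays the genes that turned ranged as follows: Sln -1.38 to 3.01, Myl7 -1.45 to 2.42, Myl4 -0.58 to 2.44, Mybphl -0.35 to 2.52, Car3 -0.73 to 1.57, Ciart -0.72 to 1.39, S100a8 -0.96 to 1.12, Eif2s3y -2.11 to 0.21, Aplnr -0.96 to 0.20, Nppa -0.29 to 0.997, Bhlhe40 -0.080 to 0.64, Prune2 -0.28 to 0.45, Myh6 -0.36 to 0.14, Atp2a2 -0.37 to 0.13, Ankrd1 -0.049 to 0.32, Ryr2 -0.17 to 0.017 and Ccdc141 -0.061 to 0.050.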

Other observations

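The genes of widest spread within a wild-type group were not load-responsive genes alone. Gdpd3, a glycerophosphodiester phosphodiesterase, read 20.8, 781 and 6.41 in banded and 903, 504 and 965 in sham hearts, so that banded 1 and 3 were far below and banded 2 lay among the sham hearts. Its log2 difference was -3.16 (95% interval -5.98 to -0.34, limma adjusted p = 0.87), and knockout hearts were at -2.97. Ciart, a repressor of the circadian clock, read 74.8, 203 and 99.1 in banded and 73.2, 12.4 and 511 in sham hearts, and Per1, a core clock gene that is also an immediate-early gene, 471, 724 and 503 and 177, 280.3 and 729.9. For both clock genes sham 3 was the highest array, as it was among sham hearts for Fos and Egr1.

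Car3, a carbonic anhydrase abundant in fat, read 927 in banded 1 and 23.0 to 102 in the other wild-type hearts. The same array had the highest adipocyte list mean. Dkk3, a secreted Wnt modulator abundant in atria, read 1310.5, 578 and 40.4 in banded and 59.4, 72.4 and 251 in sham hearts, in the same order as Sln except between sham 1 and sham 2.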
